A study of Mus musculus with 2 samples.

Results

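ATAC-seq, which inserts sequencing adapters with the Tn5 transposase into DNA that is not wrapped in nucleosomes, was used to find open chromatin in primary blood monocytes of adult mice of the C57BL/6J strain, aged 5 to 6 weeks. The series held 1 group of 2 biological replicates made from 50000 cells each, with no treated or control group. Both replicates carry the same donor identifier in the labels, which do not say whether separate animals were used, so their spread may reflect technical variation only. The described regions are the open regions that lay in exons of protein-coding genes and away from promoters. Overlapping peaks of the authors' conservative set, drawn from both replicates, were merged on chromosomes 1 to 19. A region was kept when its nearest edge lay over 1 kb from the transcription start site (TSS) of every annotated transcript and its summit, that of its peak with the highest −log10 p, fell in an exon of a protein-coding gene. The rule kept 677 regions of 27898, or 4.32% of the 15684 regions over 1 kb from every TSS. Of the others outside promoters, 7026 had their summit in an intron and 7981 lay outside protein-coding genes. At the threshold, the nearest regions kept lay 1006 bp (Thtpa) and 1008 bp (A430078G23Rik and Hyou1) from a TSS, with fold enrichments of 3.28, 3.72 and 5.09. The nearest exonic regions left out lay at 991 bp (Chpf and Dusp3) and 989 bp (Sec11c), with fold enrichments from 2.99 to 5.84.

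The labelled cell type was checked at promoters, a promoter being open when a region lay within 1 kb of one of the gene's TSSs. Of 9 monocyte markers 8 had an open promoter in the conservative set, Ccr2 being the exception, and 6 and 5 had one in the sets of replicate 1 and replicate 2 alone. Markers of other blood cells were open at Pax5 (1 of 3 B cell genes), Klf1 (1 of 1 erythroid gene tested) and Itga2b (1 of 2 platelet genes), and at 0 of 3 T cell, 0 of 2 NK cell and 0 of 3 neutrophil genes. The promoter of Ncr1, an NK cell gene, was open in the set of replicate 1 alone. The part of other blood cells in the regions described here was not tested. The files hold peaks and no reads, so sequencing depth is unknown, and it can change how many peaks a list holds. No test between groups is possible with 1 group, so values are given as counts and shares. The spread over the replicates' own thresholded sets is given as the error. This spread does not measure the error of counting few regions.

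Most open chromatin away from promoters marks enhancers and insulators, short stretches of DNA bound by transcription factors. Such elements usually lie in introns or between genes, but some lie in exons, where the same bases also code for protein or form part of the untranslated ends of the messenger RNA. In monocytes the enhancers are known to be bound by PU.1, C/EBP, AP-1, RUNX and interferon regulatory factors, and insulators by CTCF.

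Sequences of 201 bases centred on the summit are shown for the first 6 exonic regions, in order of the mean rank of their fold enrichment over both replicates, that touched no untranslated region. They show coding sequence that was itself open. Capitals mark coding bases and lower case marks intron, each sequence is on the strand of its gene, and the sequences are those of GRCm38.p6, the same build as mm10. Msr1 (scavenger receptor A of macrophages, exon 5 of 10, chr8:39619877-39620077, minus strand) was open over a whole exon and its splice sites. Spen (a repressor of transcription, exon 12 of 16, chr4:141477696-141477896, minus strand) was open inside an exon of 8020 bp. Pcnx (a membrane protein of the pecanex family, exon 8 of 36, chr12:81933586-81933786, plus strand) was also open over a whole exon, of 185 bp. The window shown crosses the end of that exon. Adam1a (a sperm membrane protein with a metalloprotease domain, its only exon, chr5:121519874-121520074, minus strand), Synpo2l (an actin-associated protein of striated muscle, exon 4 of 4, chr14:20661031-20661231, minus strand) and Morn3 (a MORN repeat protein, exon 3 of 5, chr5:123039178-123039378, minus strand) followed, ranking below the 20 regions named further on.
Msr1: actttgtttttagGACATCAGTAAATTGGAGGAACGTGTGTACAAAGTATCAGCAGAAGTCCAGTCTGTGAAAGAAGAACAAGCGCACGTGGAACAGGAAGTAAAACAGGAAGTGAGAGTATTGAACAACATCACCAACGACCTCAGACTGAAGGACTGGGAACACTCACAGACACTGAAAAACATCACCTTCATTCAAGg
Spen: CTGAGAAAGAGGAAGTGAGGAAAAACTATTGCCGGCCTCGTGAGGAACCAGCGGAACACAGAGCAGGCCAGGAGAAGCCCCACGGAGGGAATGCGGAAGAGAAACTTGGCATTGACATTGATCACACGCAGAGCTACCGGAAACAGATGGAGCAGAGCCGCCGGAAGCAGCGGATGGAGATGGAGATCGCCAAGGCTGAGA
Pcnx: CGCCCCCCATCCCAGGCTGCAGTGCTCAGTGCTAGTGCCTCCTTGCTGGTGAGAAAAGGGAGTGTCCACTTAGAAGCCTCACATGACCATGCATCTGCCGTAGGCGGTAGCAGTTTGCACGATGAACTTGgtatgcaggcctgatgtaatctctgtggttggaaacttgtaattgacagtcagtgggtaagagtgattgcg
Adam1a: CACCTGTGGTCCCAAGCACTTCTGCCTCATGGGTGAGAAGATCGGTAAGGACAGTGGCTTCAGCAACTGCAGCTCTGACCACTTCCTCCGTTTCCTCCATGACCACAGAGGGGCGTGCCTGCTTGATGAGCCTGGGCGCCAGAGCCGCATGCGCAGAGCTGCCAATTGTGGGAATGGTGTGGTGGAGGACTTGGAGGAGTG
Synpo2l: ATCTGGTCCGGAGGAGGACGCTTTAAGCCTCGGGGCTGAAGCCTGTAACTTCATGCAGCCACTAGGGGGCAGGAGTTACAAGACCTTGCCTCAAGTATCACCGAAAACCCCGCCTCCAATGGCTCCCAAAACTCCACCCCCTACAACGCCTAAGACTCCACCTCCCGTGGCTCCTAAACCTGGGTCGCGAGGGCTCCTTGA
Morn3: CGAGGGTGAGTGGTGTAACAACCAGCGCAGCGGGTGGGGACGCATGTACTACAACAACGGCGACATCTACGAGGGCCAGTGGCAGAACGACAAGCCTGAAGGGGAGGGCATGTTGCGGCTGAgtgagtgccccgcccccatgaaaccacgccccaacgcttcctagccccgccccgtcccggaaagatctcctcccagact
Of the 6 sequences, 3 were coding throughout (Spen, Adam1a and Synpo2l), and the other 3 ran into an intron. Adam1a has a close copy, Adam1b, which also held an exonic open region. For Adam1a 70.8% of the 31-base words in the window occurred elsewhere in the assembled chromosomes, so reads from the copies may be mixed there. Over all exonic regions 602 of 677 windows (88.9%) held no such repeated word and 22 (3.25%) had at least 50% of their words repeated. The windows in Muc6, Sp110, Sprr2a1, Sprr2a2 and Gm11168 were repeated throughout. No window held a 31-base word of the mitochondrial genome.

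Per base, exons were slightly more often open than introns, and the order turned when bases of like distance and base composition were set side by side. Exons had 10.3 summits per Mb of sequence over 1 kb from every TSS, against 8.46 per Mb in introns and 5.92 per Mb outside protein-coding genes, and the ratio of exons to introns was 1.22. In the replicates' own thresholded sets exons had 4.93 ± 0.151 summits per Mb and introns 4.32 ± 0.0843 (SD, n = 2 replicates), with ratios of 1.13 in replicate 1 and 1.15 in replicate 2. Exonic bases lay nearer to TSSs, 45.9% of them within 5 kb against 23.8% of intronic bases, and were richer in G and C, 32.6% of them having a GC content of 50% or more in the surrounding 201 bp against 16.4% of intronic bases. When the intron density was taken within the same classes of distance, the ratio was 0.984 (0.922 ± 0.0103 in the replicates' own sets). Within the same GC classes of 5% it was 0.751 (0.664 ± 0.0083), and within classes of both it was 0.657 (0.583 ± 0.0047). The last of these was chosen after the first results had been seen. In genes with an open promoter, also chosen afterwards, the ratio was 0.918 (0.846 ± 0.0176). The direction of the difference between exons and introns therefore rests on which introns are compared.

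The kinds of exon differed. Coding bases held 200 of the 677 summits (29.5%) and made up 36.3% of the exonic bases searched, at 8.37 summits per Mb. Bases of 3′ UTRs, which follow the stop codon in the messenger RNA, held 323 summits (47.7%) and made up 44.0% of the bases, at 11.2 per Mb. Transcripts of protein-coding genes that are not annotated as protein-coding are called non-coding transcripts here. Exons found only in them held 141 summits (20.8%) on 18.7% of the bases, at 11.5 per Mb. In 101 of the 141 the transcript is annotated as a retained intron, and in 12 as a target of nonsense-mediated decay. The 5′ UTRs held 13 summits on 0.623 Mb, or 20.9 per Mb. The densities within each replicate's own set were 3.93 ± 0.237 per Mb for coding bases, 5.11 ± 0.0977 for 3′ UTRs, 5.86 for exons of non-coding transcripts in both replicates, and 16.1 ± 2.27 for 5′ UTRs (SD, n = 2). Coding bases were thus lower than 3′ UTRs by more than the spread between replicates.

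**Figure D1:**
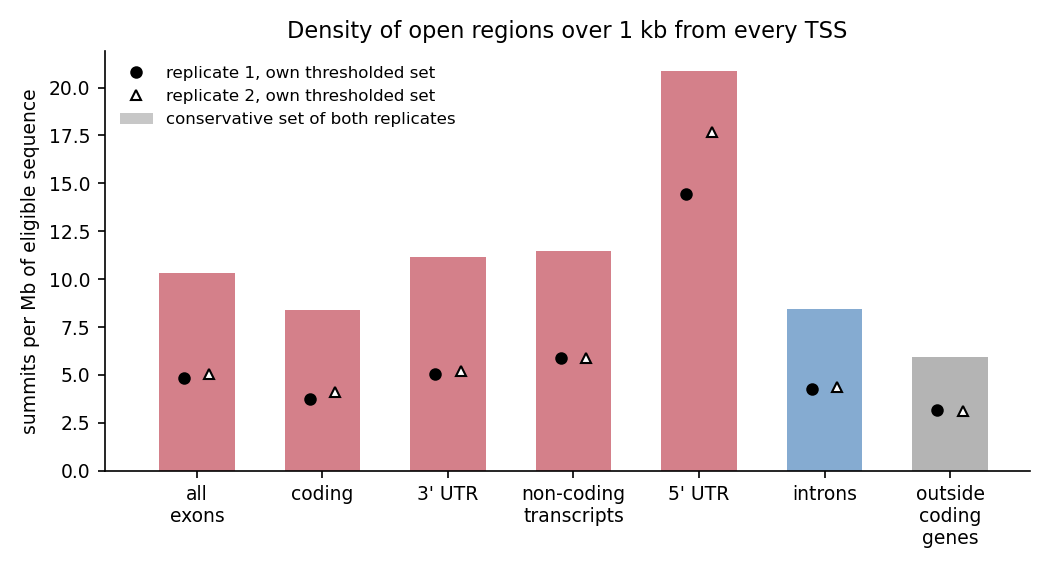
Summits of open regions per Mb of sequence over 1 kb from every TSS (vertical axis), by kind of sequence at the summit. Bars give the conservative set, filled circles replicate 1 and open triangles replicate 2 from their own thresholded sets. Coding exons stand at 8.37 per Mb and 3′ UTRs at 11.2, with introns at 8.46. The bar for 5′ UTRs rests on 13 regions.

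Coding sequence stood apart once base composition was taken into account. Of coding bases 50.9% had a GC content of 50% or more, against 23.0% of 3′ UTR bases and 16.4% of intronic bases. The ratio of coding exons to introns was 0.989 over all bases, 0.410 within GC classes and 0.355 within classes of GC and distance. In the replicates' own sets the last ratio was 0.304 ± 0.0113 (SD, n = 2). For 3′ UTRs the 3 ratios were 1.32, 1.10 and 0.969. In the replicates' own sets the ratio within GC classes was on the other side of 1, at 0.961 in replicate 1 and 0.959 in replicate 2, and that within both was 0.845 ± 0.0024. For exons of non-coding transcripts they were 1.36, 1.23 and 1.06, and for 5′ UTRs 2.47, 1.63 and 1.39. In sequence with a GC content of 55 to 60% coding exons had 11.3 summits per Mb, 3′ UTRs 39.3 and introns 37.0. Coding exons were below introns in each of the 7 GC classes from 35% to 70%, whereas in the conservative set 3′ UTRs were at or above introns in each of them, from 1.56 against 1.55 per Mb in the lowest class to 84.6 against 53.9 per Mb in the highest, which held 5 regions in 3′ UTRs. Outside this range, where regions are few, coding exons were above introns, with 2.20 against 0.234 per Mb at 30 to 35% (2 coding regions), 63.9 against 61.3 per Mb at 70 to 75% (7 coding regions) and 58.3 per Mb at 75 to 80% (2 coding regions), a class with 0 intronic regions.

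By distance, exons had 10.2 summits per Mb at 1 to 2 kb from a TSS against 11.8 in introns, and 13.5 against 12.4 at 2 to 5 kb. Regions were kept by the distance of their nearest edge but bases by their own, so both are counted low at 1 to 2 kb. The part of this in the lower values at 1 to 2 kb was not tested. The values were 11.1 in exons and 11.3 in introns at 5 to 10 kb, 8.68 and 9.73 at 10 to 20 kb, and 6.08 and 5.77 at 20 to 50 kb. Beyond 50 kb only 3 exonic regions were found, at 1.24 per Mb against 2.16 in introns. Within each replicate's set the ratio of exons to introns was below 1 in both replicates in 5 of the 6 distance classes, and at 5 to 10 kb it was 1.03 in replicate 1 and 0.977 in replicate 2.

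**Figure D2:**
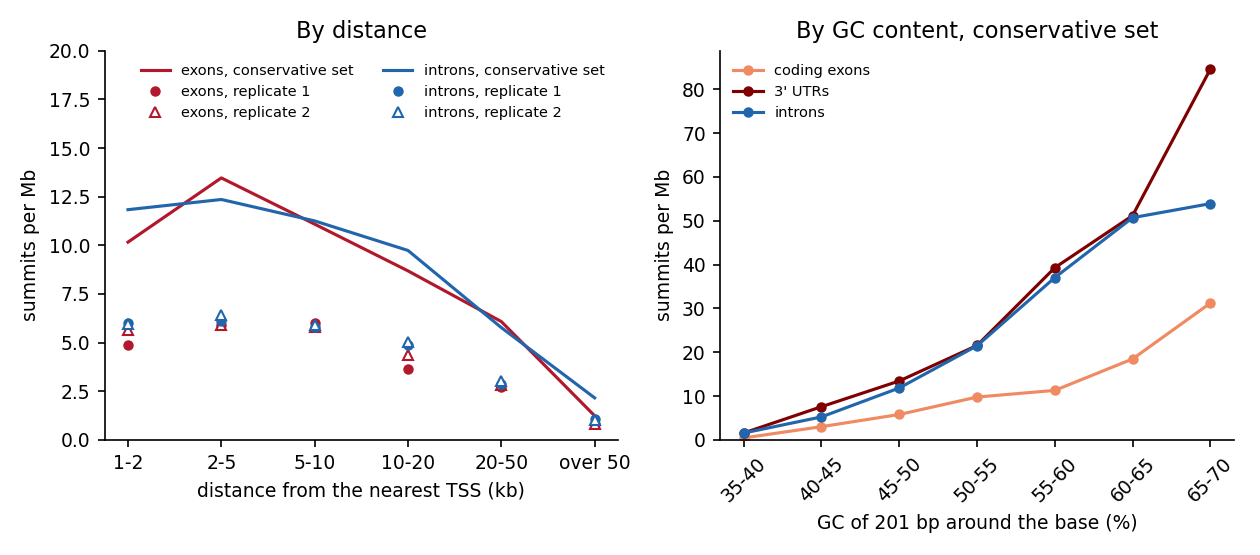
Summits per Mb by distance from the nearest TSS in kb (left, exons red and introns blue, lines for the conservative set, circles and triangles for replicates 1 and 2) and by GC content of the surrounding 201 bp (right, conservative set). In the conservative set exons and introns are both highest at 2 to 5 kb and lower at each greater distance. The 1 to 2 kb class is counted low, because regions were kept by their edge and bases by their own distance. In the GC classes drawn coding exons lie below introns, with 11.3 against 37.0 per Mb at 55 to 60%.

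Within exons, summits were sparse near the edges. The first 25 bp inside an exon edge held 7.33 summits per Mb and the next 25 bp 6.57 per Mb, against 16.3 per Mb at 101 to 200 bp and 10.7 per Mb beyond 200 bp. On the intron side the density was 9.87 per Mb within 100 bp of the exon and stayed between 8.90 and 10.9 per Mb up to 5 kb, with 6.48 per Mb farther away. Within each replicate's set the first 25 bp held 2.88 ± 0.407 per Mb and bases 101 to 200 bp inside held 7.51 ± 0.114 per Mb (SD, n = 2), a difference larger than the spread. Bases far from an edge exist only in long exons, so position, exon length and exon kind cannot be told apart in this profile.

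**Figure D3:**
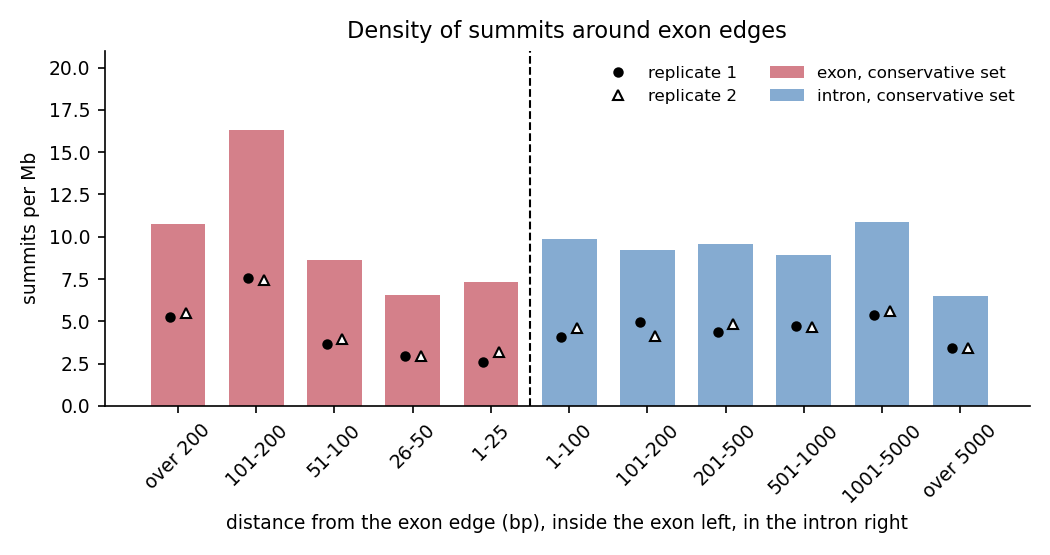
Summits per Mb by distance from the exon edge in bp, inside the exon to the left of the dashed line and in the intron to its right. Bars give the conservative set, circles and triangles the own thresholded sets of replicates 1 and 2. Inside exons the lowest bars are at 26 to 50 bp (6.57) and 1 to 25 bp (7.33) and the highest is at 101 to 200 bp (16.3), and in introns the lowest is beyond 5000 bp (6.48).

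The exonic regions were short, and most lay in the last exon of a transcript. Their median width was 360 bp, against 373 bp in introns, and 440 of them (65.0%) lay wholly in exonic sequence. Regions at coding summits were 65.9% exonic at the median, in exons of 234 bp at the median, so most of them ran past their exon. Regions at 3′ UTR summits lay in exons of 2524 bp at the median. The exon was the last of its transcript in 462 regions (68.2%), internal in 164, the only one in 46 and the first in 5. Of the 462, 82 were last exons of non-coding transcripts, which need not lie late in the gene, and no share of last-exon bases was set beside these counts. Of 323 summits in 3′ UTRs, 11 lay within 100 bp of the end of the transcript and 38 within 200 bp. In 5 equal parts of the exon from its start to its end, the 3′ UTR summits numbered 47, 51, 71, 77 and 77. The parts divide the whole exon, which can begin with coding bases, where no 3′ UTR summit can be counted. No share of 3′ UTR bases per part was set beside these counts, so no trend is read from them. The median distance to the nearest TSS was 4.27 kb for exonic regions and 7.66 kb for intronic ones. Another open region lay within 5 kb of 272 of the 677 (40.2%), against 36.8% of intronic regions. The share was 39.6% for regions outside protein-coding genes, close to that of exonic regions.

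The sequence at the summits differed in CpG content. The median GC content was 52.7% in exonic and 50.2% in intronic regions. An observed to expected CpG ratio of 0.6 or more, a usual mark of CpG islands, was found in 80 exonic regions (11.8%). It was found in 3.49% of intronic regions and in 7.99% of those outside protein-coding genes. Among exonic regions at coding summits the share was 22.5%. Exons with no open region within 1 kb had this ratio in 7.58% of 132653 windows, of which 104142 were coding, a mix unlike that of the exonic regions. Within kinds, closed coding exons had it in 8.75% of windows. Closed 3′ UTRs had it in 3.65%, against 8.05% of regions at 3′ UTR summits. Repeats covered 50% or more of the window in 5 exonic regions (0.739%), against 3.54% in introns.

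The fold enrichment of a peak, the authors' own value of its signal over background within a list, was close to that in introns. The median over exonic regions was 5.59 in replicate 1 and 5.33 in replicate 2, against 5.71 and 5.52 over intronic regions. The log2 difference between exonic and intronic medians was -0.03 in replicate 1 and -0.05 in replicate 2, a mean of -0.04 ± 0.01 (SD, n = 2). The same difference was 0.06 in both replicates for regions outside protein-coding genes.

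The strongest exonic region was in the 3′ UTR of Coa5, a factor for the assembly of cytochrome c oxidase, with fold enrichments of 14.3 in replicate 1 and 14.8 in replicate 2. It lay 10.2 kb from the nearest TSS, and 44.4% of the 31-base words of its window had a copy elsewhere. Snx14, a sorting nexin of the endolysosomal system, followed with 14.2 and 13.2 in coding exon 12 of 28, an exon of 115 bp. The order of these 2 regions was the same in both replicates. Sf3b5, a subunit of the U2 spliceosome, had 12.0 and 12.3 at a 5′ UTR, in a region of 904 bp. No region lay within 1 kb of an annotated TSS of Sf3b5, so its promoter was counted as not open. The exonic region lay 2.81 kb from the nearest annotated TSS, with its summit 804 bp from the transcript end and a CpG ratio of 0.938 there. Starts of transcription outside the annotation were not searched. Lars2, the mitochondrial leucyl-tRNA synthetase, had 13.0 and 11.2 in its 3′ UTR, where 63.7% of the words had a copy. Dnajc15, a cochaperone of mitochondria, had 11.1 and 12.1 in a 3′ UTR of an exon of 5790 bp. The neighbours from Sf3b5 to Dnajc15 did not keep their order in both replicates.

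Vcl, which encodes the focal adhesion protein vinculin, had 10.9 in replicate 1 and 12.1 in replicate 2, in a 3′ UTR that overlaps an exon of Ap3m1, so the region belongs to both genes. Among coding exons, Msr1 had 10.5 and 9.91 at 22.4 kb from the nearest TSS, and its own promoter was not open. Spen had 10.6 and 9.35, Sgtb (a cochaperone) 9.10 and 10.4, and Pcnx 9.90 and 9.29. The kinase gene Stk38l, with 10.7 and 10.1, and Atf6, a transcription factor of the endoplasmic reticulum stress response, with 11.3 and 9.27, were open in their 3′ UTRs. St3gal2 (a sialyltransferase), Doc2b (a calcium sensor of vesicle release) and Rdh13 (a retinol dehydrogenase) were also open in their 3′ UTRs, at 13.3, 10.9 and 10.3 in replicate 1 and 9.26, 9.17 and 9.31 in replicate 2. The other 5 of the first 20 were in exons of non-coding transcripts of Armc9, Als2cr12, Chrna9 (a nicotinic acetylcholine receptor subunit), Neil3 (a DNA glycosylase) and Il31ra (the interleukin-31 receptor). They ranged from 8.94 to 12.8 in replicate 1 and from 9.25 to 12.3 in replicate 2. At Als2cr12 99.4% of the words had a copy, so its position is uncertain.

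The widest regions were in a coding exon of Muc6, a gastric mucin (1783 bp, fold 4.10 in replicate 1 and 4.59 in replicate 2, in sequence repeated throughout), at a 5′ UTR exon of Kdm6b, a histone H3 lysine 27 demethylase (1367 bp, 4.13 and 3.54, 8.63% exonic), and in B430305J03Rik (1240 bp, 5.06 and 5.90). The region farthest from any TSS was at a non-coding transcript of Gpc6, a glypican (328 kb, mean fold 8.55 ± 0.644, SD, n = 2). It was followed by a pair of regions in the 3′ UTR of St8sia4, a polysialyltransferase, at 58.1 and 57.0 kb. The first of the pair had 7.09 in replicate 1 and 9.89 in replicate 2, the second 3.97 and 4.97.

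Of the 677 regions 567 overlapped a peak in both replicates' looser pseudoreplicated sets, 45 in replicate 1 alone, 43 in replicate 2 alone and 22 in neither. Over the 567 the median log2 fold of replicate 2 minus replicate 1 was -0.07 with an SD of 0.24, and 0 regions differed by over 1 log2 unit. The conservative set was made from both replicates, so part of this agreement is built in. Of the 7026 intronic regions 6193 had a peak in both looser sets, with an SD of 0.25 and 0 over 1 log2 unit. In the stricter thresholded sets 221 of 677 (32.6%) were found in both replicates, against 36.3% of intronic regions and 38.6% of those outside protein-coding genes, the share over all regions outside promoters being 37.3%. Exonic regions were weaker, 33.2% of them being in the lowest of 4 equal classes of fold set over all regions outside promoters. Within the 4 classes from low to high, 4.44%, 21.3%, 43.0% and 85.6% of exonic regions were found in both, against 7.81%, 19.9%, 43.1% and 81.7% of intronic ones, so at like fold the shares were close above the lowest class.

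**Figure D4:**
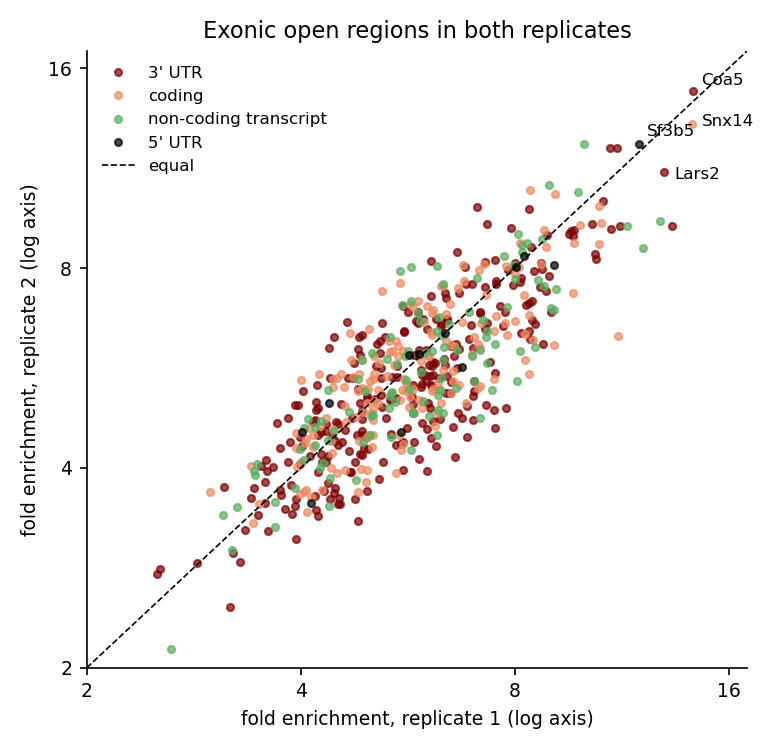
Fold enrichment of 567 exonic open regions in replicate 1 (horizontal) and replicate 2 (vertical), both on log axes, coloured by the kind of exon at the summit. The dashed line marks equal values. Coa5 and Snx14 are highest in both replicates, and no region lies over 1 log2 unit from the line.

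Exonic regions lay in 662 protein-coding genes, 3.35% of the 19788 genes with exonic sequence over 1 kb from every TSS. Of these genes 458 (69.2%) had an open promoter of their own, against 49.9% of all such genes and 69.4% of genes with an intronic region. In the replicates' own sets the share was 54.9% in replicate 1 and 58.6% in replicate 2, against 42.1% and 43.5% of all genes. The genes with exonic regions had more exonic sequence to search, 3992.5 bp at the median against 2513 bp, and the part of this in the difference was not tested. By kind of exon the promoter was open for 127 of 201 genes (63.2%) at coding exons, 217 of 319 (68.0%) at 3′ UTRs, 117 of 141 (83.0%) at exons of non-coding transcripts and 5 of 13 at 5′ UTRs. An intronic region was also present in 259 of the 662 genes (39.1%), against 18.1% of all genes. Genes with an intronic region also had more exonic sequence than all genes, 4034 bp at the median. The part of gene size in this difference was not tested. The promoter was not open for 211 of the 677 regions (31.2%), Msr1 among them.

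Most genes had 1 exonic region, 24 had 2 and 3 genes had 3. Itsn1, which encodes the endocytic scaffold intersectin, was open at a coding exon (7.29 in both replicates), 220 bp farther on in the 3′ UTR of a shorter transcript (4.98 in replicate 1 and 4.28 in replicate 2), and in the 3′ UTR of the long one (7.26 and 8.17). Lrp1, an endocytic receptor of macrophages and hepatocytes, was open at coding exons 24 (5.71 and 5.12) and 22 (4.16 and 4.48) of 89 and at a non-coding transcript (6.22 and 4.48). Srcin1, a regulator of the kinase Src, was open at a coding exon (5.68 and 4.94). Its other regions, both in the 3′ UTR, overlapped no peak of either replicate's looser set.

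Genes of monocyte function were read from lists against the 3.35% of all genes. Of 27 Fc, phagocytic and scavenger receptor genes 4 had an exonic region (Msr1, Lrp1, Cd300lf and Cd300a), of 20 integrin and adhesion genes 3 (Spn, Selplg and Itga4), and of 27 AP-1, NF-kB and early response genes 3 (Ier5, Nfkb2 and Fosb). Among 34 cytokine, chemokine and receptor genes there were 3 (Tnfrsf1b, Cx3cr1 and Csf1r), and 3 each among 32 genes of the actin cytoskeleton and its signalling (Vcl, Dock2 and Iqgap1) and 32 chromatin genes (Hdac4, Kdm6b and Setd1b). Of 31 myeloid transcription factor genes 2 were open in an exon (Elf1 and Klf4) and of 25 innate sensors and adaptors 1 (Ticam1). Of genes of other tissues, 1 of 29 neuron and muscle genes had an exonic region (Cacna1a), as did 0 of 28 lymphocyte genes and 0 of 31 collagen, matrix and hepatocyte genes. The lists are too short for a count to be set apart from the share over all genes, and the median gene had 0 exonic regions in each list and over all genes. Read against the 49.9% of all genes, an open promoter was present in 18 of the 27 scavenger receptor genes, 15 of the 20 integrin genes, 26 of the 27 early response genes, 26 of the 34 cytokine genes, 30 of the 32 actin genes and 26 of the 32 chromatin genes. It was present in 27 of the 31 myeloid factor genes, 19 of the 25 innate sensors, 5 of the 29 neuron and muscle genes, 10 of the 28 lymphocyte genes and 5 of the 31 collagen, matrix and hepatocyte genes.

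Among these genes, Cd300lf, an inhibitory receptor of myeloid cells, had fold enrichments of 8.54 in replicate 1 and 6.09 in replicate 2 at a non-coding transcript. Dock2, a Rac activator of leukocytes, had 6.26 and 6.76, also at a non-coding transcript. The TNF receptor gene Tnfrsf1b had 6.64 and 5.66 in its 3′ UTR, and Cx3cr1, the fractalkine receptor that marks monocytes, had 5.92 and 5.35 in its 3′ UTR, 18.5 kb from the nearest TSS. The lysozyme gene Lyz1, from the list of lysosome and metabolic genes, had 6.08 and 5.49 in its 3′ UTR. The promoter of Lyz1 was not open, and 26.9% of the words in the exonic window had a copy. Lyz2, the lysozyme gene among the monocyte markers, had an open promoter in the conservative set and in each replicate's own set. The receptor gene Csf1r, which binds the main growth factor of monocytes, had 4.10 and 4.75 at a non-coding transcript. Hdac4, a histone deacetylase, had 6.35 and 5.62 at a coding exon. Regions in Nfkb2 (fold 3.04 in the conservative set) and Fosb (3.01) overlapped no peak of either replicate's looser set, and Klf4 overlapped one in replicate 2 alone (4.34).

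Known motifs were searched as letters on both strands within 100 bp of each summit. The letters were GAGGAAGT for PU.1, TTGCNNAA for C/EBP, TGANTCA for AP-1, TGTGGTT for RUNX, AAAGGTCA for NR4A, AAGATGGC for YY1, GGGCGGGG for SP and KLF factors, TGACGTCA for CREB and ATF factors and GCGTGGGCG for EGR. Longer patterns with free positions were used for CTCF, for PU.1 with IRF4 or IRF8 (ETS-IRF), for interferon regulatory factors, NF-kB and NRF1. ETS-IRF and interferon regulatory factor letters can overlap each other and PU.1 letters. The strongest exonic region with each of 5 motifs is shown here, with the motif in capitals on the strand on which it reads as given, to show what the letters look like at exonic regions.
CTCF in Armc9, chr1:86179020-86179047, plus strand: ataaacaaCCAAGAGCTGGCcttaccac
PU.1 in Adam1a, chr5:121519979-121520002, plus strand: aggaaacgGAGGAAGTggtcagag
C/EBP in Dnajc15, chr14:77825330-77825353, minus strand: cagagtggTTGCGAAAgcaagccc
AP-1 in Dnajc15, chr14:77825298-77825320, plus strand: tgttggggTGACTCActgcgatc
CREB and ATF in Snx14, chr9:88404262-88404285, plus strand: aagcatggTGACGTCActggtgac
The Dnajc15 window also held ETS-IRF letters, so 3 of the searched motifs lay within 100 bp of its summit. The letters in Snx14 lay 45 bp from the summit of the second strongest exonic region, in the intron beside its exon. A match is a description of the sequence and does not show that a factor was bound.

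The CTCF letters were the most frequent in exonic regions of the conservative set, followed by those of C/EBP, and the pair had equal shares in the own set of replicate 2. CTCF letters were present in 119 of 677 (17.6%), against 13.3% of intronic regions, 14.7% of all regions outside promoters and 1.71% of exons with no open region within 1 kb, a value weighted to the same exon kinds and GC classes. In the replicates' own sets 13.9% of exonic regions of replicate 1 and 12.1% of replicate 2 held them (13.0% ± 1.27), against 9.49% ± 0.244 of intronic regions (SD, n = 2). They were in 36 of 200 regions at coding summits and 60 of 323 in 3′ UTRs (18.6%). The same letters in reversed order were present in 2 exonic regions (0.295%). Reversal keeps the base composition but adds a CpG that the CTCF letters lack. CpG was rarer than expected at exonic summits (median ratio 0.289), so the reversed share sets no background for CTCF letters.

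Over all exonic regions the letters of PU.1, C/EBP, AP-1, RUNX and ETS-IRF were also more frequent than in closed exons. They were somewhat less frequent than in open introns. PU.1 letters were in 70 exonic regions (10.3%), against 12.8% of intronic regions, 12.0% of all regions outside promoters and 1.34% of closed exons, and in reversed order in 1.48%. They were in 13.0% of regions at coding summits, which is not below the share in introns, and in 7.43% of those in 3′ UTRs. C/EBP letters were in 12.3% of exonic regions, against 13.9% of intronic regions, 13.8% of all regions and 5.99% of closed exons. For AP-1 the shares were 10.5% in exonic regions, 11.8% in intronic regions, 11.6% over all regions and 4.84% in closed exons. For RUNX they were 7.39%, 10.2%, 9.93% and 3.81% in the same order, and for ETS-IRF 3.55%, 5.81%, 5.71% and 1.55%. At coding summits the differences from closed coding exons, here not weighted for GC, were smaller for some motifs. The shares were 10.5% against 8.33% for C/EBP, 9.0% against 4.88% for AP-1, 4.0% against 3.54% for RUNX and 2.5% against 1.90% for ETS-IRF. In reversed order the letters were in 1.62% of exonic regions for both C/EBP and ETS-IRF, 3.84% for AP-1 and 3.25% for RUNX. The reversed C/EBP letters also gain a CpG, so their low share sets no background for that motif. Within each replicate's set PU.1 letters were in 10.8% ± 0.107 of exonic and 14.5% ± 0.348 of intronic regions (SD, n = 2). For RUNX letters the shares were 9.11% ± 0.497 and 11.1% ± 0.612. Both differences were larger than the spread between replicates, which does not measure the error of counting few regions. RUNX letters were in only 50 exonic regions of the conservative set. Among motifs found in at least 20 exonic regions, those with ETS-IRF letters had the highest median fold enrichment in the conservative set, 7.14 against 5.73 without them, a comparison singled out after its values were seen.

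Rarer letters gave small counts. NRF1 letters were in 6 exonic regions (0.886%, against 0.285% of intronic regions and 0.389% of all), the strongest in the 3′ UTR of Mturn, and YY1 letters in 16 (2.36%, against 1.22% and 1.33%). NR4A letters were in 20 (2.95%, against 2.86% and 2.91%), GC boxes of SP and KLF factors in 18 (2.66%, against 2.38% and 2.70%) and interferon regulatory factor letters in 15 (2.22%, against 3.71% and 3.60%). In closed exons, weighted as above, interferon regulatory factor letters were in 1.63%. At coding summits they were in 2.0%, against 3.13% of closed coding exons without weighting. NF-kB letters were in 5 (0.739%, against 1.45% and 1.50%), CREB and ATF letters in 4 (0.591%, against 0.811% and 0.682%) and EGR letters in 3 (0.443%, against 0.0569% and 0.121%). In reversed order the letters were in 2 exonic regions for NRF1, 2 for YY1, 10 for NR4A, 17 for GC boxes, 14 for interferon regulatory factors, 4 for NF-kB, 10 for CREB and ATF factors and 3 for EGR. For interferon regulatory factors, NF-kB and EGR the reversed letters were thus about as frequent as the motif. The reversed GC box letters differ from the motif only in the place of the C, so their count sets no background. Reversal takes the CpG out of the CREB and ATF letters and adds CpG to those of NRF1 and YY1. The reversed counts of these motifs therefore set no background either. None of the 14 motifs was found in 287 exonic regions (42.4%).

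**Figure D5:**
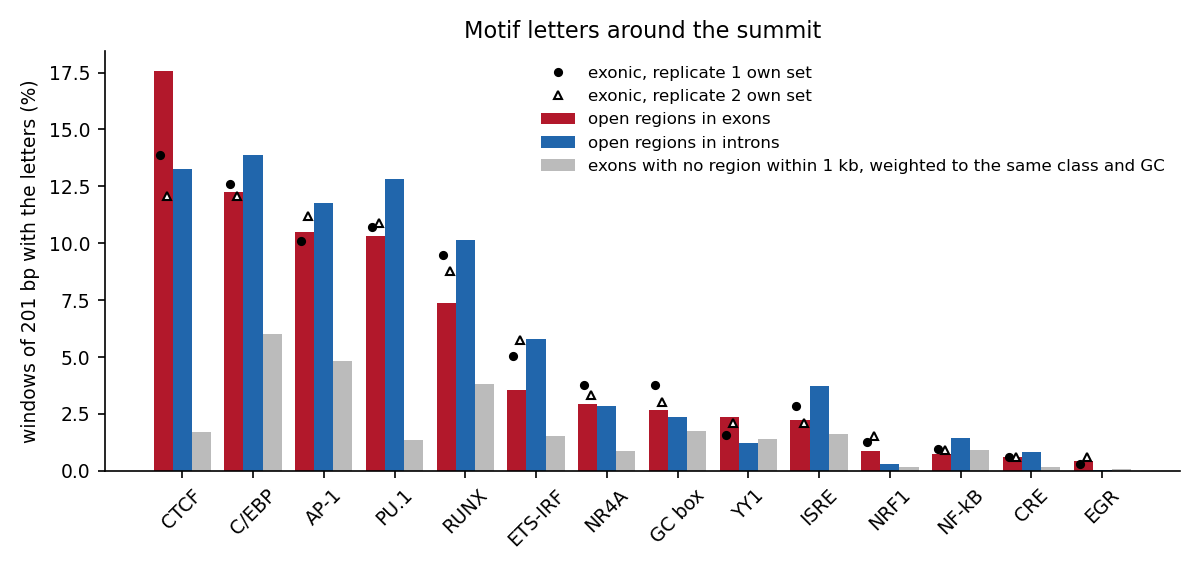
Share of windows of 201 bp that hold the letters of each motif (vertical axis, percent) in open regions in exons (red), in open regions in introns (blue) and in exons with no open region within 1 kb, weighted to the same exon kinds and GC classes (grey). Circles and triangles give exonic regions of the own sets of replicates 1 and 2. CTCF letters are in 17.6% of exonic regions against 1.71% of closed exons.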

How the data were processed

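The data were ATAC-seq peak lists of 2 replicates on assembly mm10, per the labels. Which aligner and peak caller made them, and whether reads were shifted for Tn5, is not given in the sources used here. Lists per replicate and lists from both replicates were deposited by the authors, per the README. The fold enrichment of a peak over background is a ratio as the authors deposited it, and was not rescaled. The −log10 p and the score of each peak are also as deposited by the authors, and the conservative set holds no score under 540. No read counts were used.

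Peaks overlapping by 1 bp or more were merged on chromosomes 1 to 19. GENCODE M21 gave the gene models and GRCm38.p6 the sequence, the same build as mm10, and 0 regions ran past a chromosome end. A summit base was called coding first, then 5′ UTR, 3′ UTR, exon of non-coding transcripts only, and intron. Densities are summits per Mb of known sequence over 1 kb from every TSS. Regions were kept by the distance of their nearest edge, so bases just over 1 kb from a TSS can rarely hold a counted summit. Standardised ratios divide the exonic summits by the number expected from intron densities in the same classes, over classes that hold intronic summits. The code was tested on simulated regions with known ratios. Replicate densities, shares and motif counts are from each replicate's own thresholded set, and replicate folds from its pseudoreplicated set. Copies of 31-base words were counted over both strands of the assembled chromosomes.

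The members and gene lists were chosen with earlier results of these data known. Named were the 20 regions of highest mean rank, genes with 3 regions, the 3 widest and 3 farthest regions, up to 4 genes per list, and the strongest region per motif. The list of lysosome and metabolic genes is not reported here as a count. Alternatives were other peak sets, a single replicate, other start sites, distances, exons, summits and windows. Python 3.11.15, numpy 2.4.6, pandas 2.3.3, scipy 1.17.1 and matplotlib 3.10.9 were used.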

Additional observations from a re-analysis of the deposited data

How the results depend on the processing

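The number of exonic regions, 677, was 1791 in the series' replicated set, 1634 in its pseudoreplicated set, 427 with a score of 830 or more and 1241 when only the start of each gene counted as a TSS, and from 317 to 331 in either replicate alone. Of those 1241 regions, 564 lay within 1 kb of the start of another transcript. The ratio of exon to intron density, 1.22, was 1.17 in the thresholded set of the series, 1.38 in the replicated set, 1.35 in the pseudoreplicated set, 1.18 at the stricter score, 1.60 with gene starts, 1.30 with starts of protein-coding transcripts, 1.24 with distance taken from the summit, 1.18 with exons of protein-coding transcripts and 1.28 with the middle of the region as its summit, and from 1.13 to 1.15 with 1 replicate. It fell below 1 within distance classes (0.984), within GC classes (0.751), within both (0.657) and in genes with an open promoter (0.918), the last 2 chosen after seeing the data. These compare with other intronic bases by construction.

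In the same settings the coding share of exonic regions, 29.5%, was 30.5% in the thresholded, 40.6% in the replicated and 39.0% in the pseudoreplicated set, 31.1% at the stricter score, 24.7% with gene starts, 37.3% with exons of protein-coding transcripts, 32.1% with region middles, 22.8% with regions at least 50% exonic, and 28.4 to 29.6% with 1 replicate. The log2 difference in fold from introns, -0.0418, was -0.0637 in the replicated set, -0.0602 in the pseudoreplicated set, -0.0081 with gene starts and -0.0254 with 2000 bp from start sites. The share found in both replicates, 32.6%, was 35.5% in the thresholded, 12.4% in the replicated and 13.6% in the pseudoreplicated set, 51.3% at the stricter score, 40.5% with gene starts, 33.6% at 2000 bp, 31.7% with exons of protein-coding transcripts, 33.3% with region middles, 31.5% when at least 50% of the region had to be covered, and 83.8% with the replicates' pseudoreplicated sets. The share of host genes with an open promoter, 69.2%, was 66.4% in the thresholded, 72.9% in the replicated and 74.3% in the pseudoreplicated set, 65.8% at the stricter score, 82.1% with gene starts, 75.2% with starts of protein-coding transcripts, 72.6% at 500 bp, 65.7% with exons of protein-coding transcripts, and 54.9 to 58.6% with 1 replicate. The cause of these shifts was not tested. With 50 and 150 bp each side of the summit, CTCF letters were in 16.7% and 18.2% of exonic regions, PU.1 letters in 7.83% and 10.9%, C/EBP letters in 7.09% and 16.1%, AP-1 letters in 5.76% and 13.6% and RUNX letters in 5.02% and 9.60%. No paired analysis was possible because the series holds 1 group. Depth is unknown, and the lowest of 4 classes of fold, with 33.2% of exonic regions, was found in both replicates in 4.44% of cases.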
